A study of Drosophila melanogaster with 6 samples.

Results

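The salivary gland glue genes Sgs1, Sgs3, Sgs4, Sgs5, Sgs7, Sgs8, ng1, ng2 and ng3 were followed in RNA of Drosophila melanogaster females, taken as whole larvae in the third instar, which either lacked both roX RNAs or had roX1 put back as a transgene. Members were taken by name, as the probesets whose only gene symbol in the platform annotation is one of these 9 genes. A probeset is the set of short probes that reads one transcript. Each gene had 1 such probeset, so the 9 genes are read by 9 of 18769 probesets, and all 9 were among the 11262 probesets bright enough to be tested. One further probeset is listed under both ng1 and ng2 and is therefore no member; its values are given beside theirs.

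The mutant larvae carried roX1SMC17ADf(1)52, and so neither roX1 nor roX2, together with the transgene [w+4D4.3]. The control larvae carried the same chromosome and the same w+ transgene, and in addition [hsp83-roX1+], in which the hsp83 promoter drives roX1. No larvae of a wild-type stock are among the groups, although the labels use the second genotype as the wild-type control. Each group had 3 independent RNA preparations, each from 50 pooled whole larvae and each read on 1 Affymetrix Drosophila Genome 2.0 array. Values are log2 expression values from robust multi-array average (RMA), and differences are mutant minus control. In RNA of whole larvae, fewer gland cells and less RNA per gland cell cannot be told apart, and the age of the larvae within the third instar is not given in the sources used here.

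Glue is a protein mixture that the larval salivary gland makes in bulk during the last part of larval life, stores in secretory granules and expels when the larva settles to pupariate, fixing the pupal case to its support. The glue genes are switched on in the gland during the third instar, under the steroid hormone ecdysone, the zinc finger factor encoded by br and the gland factors encoded by fkh and sage, and are switched off again by the high ecdysone titre that ends larval life. Their transcripts are therefore widely read as a mark of how far third-instar larvae have advanced. Sgs1, Sgs3 and Sgs4 encode long mucin-like proteins, Sgs7 and Sgs8 encode small secreted proteins related to one end of Sgs3, Sgs5 encodes a further small glue protein, and ng1, ng2 and ng3, the new glue genes, were found by their expression in the same gland.

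In the RefSeq gene order, Sgs8 and Sgs7 are direct neighbours on 3L with Sgs3 close by, Sgs5 lies next to its relative Sgs5bis on 3R, and Sgs1 lies on 2L. Sgs4, ng1, ng2 and ng3 lie on X within the span of dnc, the cyclic AMP phosphodiesterase gene, in the order ng2, ng3, ng1, ng4, Pig1, Sgs4.

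One array stood apart from the rest. On control replicate 1, 308 of the 11262 tested probesets lay more than 1 log2 unit from the median of the other 5 arrays, 285 of them below it, against 78 to 165 probesets on each of the other arrays. Its correlations with the other arrays across tested probesets were 0.9774 to 0.9836, and those among the other 5 were 0.9847 to 0.9955. The excess of 3' over 5' signal of the actin control probesets, which grows as RNA degrades, was 0.77 to 0.94 on the mutant arrays, 0.72 on control replicate 1 and 0.70 and 0.74 on the other control arrays. That of the GAPDH control probesets was 1.23 to 1.46 on the mutant arrays, 1.35 on control replicate 1 and 1.36 and 1.41 on the other control arrays, so only for actin did all mutant arrays lie above all control arrays. The difference of each glue gene is given below with and without this array.

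None of the 9 glue genes passed limma's test between mutant and control larvae. Limma draws the variance of each gene toward a value common to all tested probesets. Its p-values and intervals therefore do not measure a gene's own spread between preparations alone. Of the 9 probesets, 0 passed limma's test at an adjusted p under 0.05, where 0.551% of all tested probesets did, and 0 had an unadjusted p under 0.05, against 9% of all tested probesets. The limma adjusted p-values of the 9 genes lay between 0.699 and 0.946. The median log2 change of the 9 was 0.066, beside -0.0086 over all tested probesets, with 7 changes above 0 and 2 below. Without control replicate 1 the same test called 0 of the 9 (smallest limma adjusted p = 0.543), with 0 at an unadjusted p under 0.05, where 0.746% of all tested probesets were called and 10.6% had an unadjusted p under 0.05. Differences between arrays were small for the Sgs genes other than Sgs1, and for the ng genes 1 control pool was below all other arrays.

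**Figure D1:**
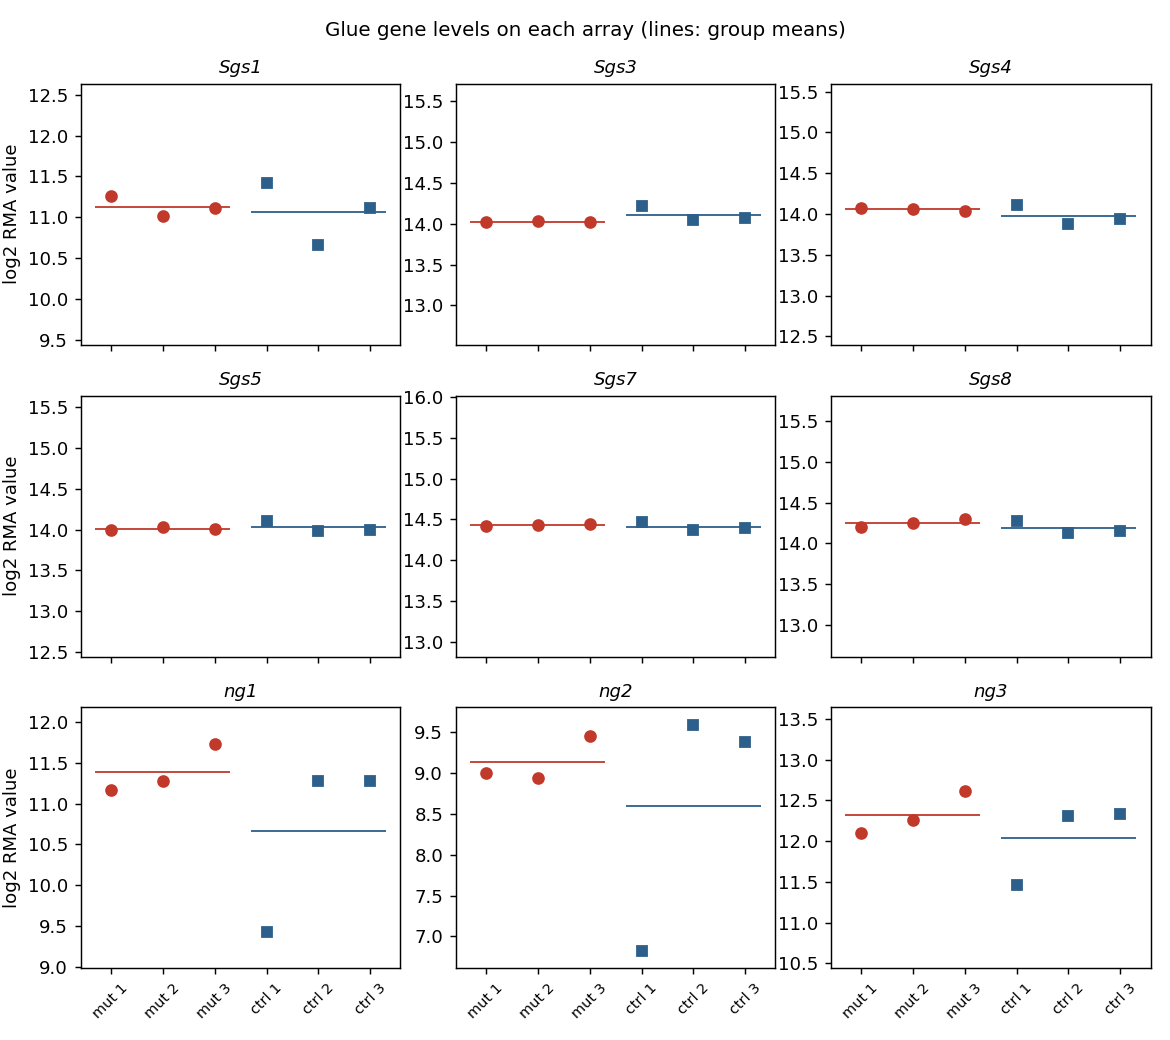
Log2 RMA value (vertical axis, with the same span of log2 units in every panel) of each glue gene on the 3 mutant arrays (red circles) and the 3 control arrays (blue squares), with lines at the group means. Control replicate 1 is the lowest point for ng1, ng2 and ng3, and the Sgs panels other than that of Sgs1 are nearly flat.

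Among the mucin-like genes, Sgs3 read 14.02, 14.03 and 14.03 in mutant larvae, against 14.21, 14.05 and 14.08 in control larvae. All mutant values lay below all control values, the only one of the 9 genes whose groups did not overlap, where 16.3% of all tested probesets did not overlap in either direction and 9.33% lay lower in the mutant. The difference was -0.09 (SE 0.08, 95% interval -0.26 to 0.09; limma adjusted p = 0.757), and without control replicate 1 it was -0.04. The values of Sgs4 were 14.08, 14.07 and 14.04 in mutant larvae, against 14.12, 13.88 and 13.94 in control larvae. Control replicate 1 was the highest of the 6 and the other control pools were the lowest, so the groups overlapped through that pool alone. The difference was 0.08 (SE 0.08, 95% interval -0.12 to 0.28; limma adjusted p = 0.796), and 0.15 without that pool (95% interval -0.02 to 0.32; limma adjusted p = 0.543). Without that pool, limma's SE was 0.07 for both Sgs4 and Sgs3, while their residual SDs within groups were 0.03 and 0.01. The intervals of these tightly grouped genes thus rest largely on the variance shared by all tested probesets.

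Sgs1 read 11.26, 11.02 and 11.11 in mutant larvae, against 11.42, 10.66 and 11.12 in control larvae. The control pools held both the highest and the lowest value, and every mutant value lay between them. The difference was 0.07 (SE 0.19, 95% interval -0.38 to 0.51; limma adjusted p = 0.933). The interval spans changes down and up, and its sign depends on the pools: the difference was 0.24 without control replicate 1 and -0.14 without control replicate 2.

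The small glue proteins had close values on all arrays. Sgs7 read 14.42, 14.43 and 14.44 in mutant larvae, against 14.47, 14.37 and 14.40 in control larvae, a difference of 0.02 (SE 0.07, 95% interval -0.14 to 0.18; limma adjusted p = 0.940). Sgs8 read 14.21, 14.26 and 14.30 in mutant larvae, against 14.28, 14.13 and 14.16 in control larvae, a difference of 0.07 (SE 0.08, 95% interval -0.11 to 0.25; limma adjusted p = 0.819). For both genes the mutant pools lay above control replicates 2 and 3, and control replicate 1 lay above the mutant pools of Sgs7 and among those of Sgs8. Sgs5 read 13.995, 14.032 and 14.002 in mutant larvae, against 14.10, 13.987 and 13.997 in control larvae, a difference of -0.02 (SE 0.07, 95% interval -0.19 to 0.15; limma adjusted p = 0.946). Without control replicate 1 the differences were 0.05 for Sgs7 (limma adjusted p = 0.862), 0.11 for Sgs8 (limma adjusted p = 0.677) and 0.02 for Sgs5 (limma adjusted p = 0.962), the last with its sign turned. Also without control replicate 1, the groups no longer overlapped for 4 of the 9 genes, Sgs4, Sgs7 and Sgs8 higher and Sgs3 lower in the mutant, where 27.6% of all tested probesets did not overlap with 3 arrays against 2.

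The ng genes varied far more between pools. For ng1 the values were 11.17, 11.28 and 11.73 in mutant larvae, against 9.43, 11.28 and 11.27 in control larvae. The mutant pools overlapped with control replicates 2 and 3, and control replicate 1 was the lowest of the 6. The difference was 0.73 (SE 0.49, 95% interval -0.44 to 1.90; limma adjusted p = 0.699), and without control replicate 1 it was 0.12 (95% interval -0.30 to 0.53; limma adjusted p = 0.872).

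For ng2 the values were 9.001, 8.948 and 9.46 in mutant larvae, against 6.82, 9.59 and 9.39 in control larvae. The same control pool was the lowest, and the highest value was also that of a control pool. The difference was 0.53 (SE 0.70, 95% interval -1.13 to 2.20; limma adjusted p = 0.844) with all arrays and turned to -0.36 without control replicate 1 (95% interval -0.77 to 0.06; limma adjusted p = 0.545).

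For ng3 the values were 12.10, 12.26 and 12.61 in mutant larvae, against 11.46, 12.31 and 12.33 in control larvae. Control replicate 1 was again the lowest, and mutant replicate 3 was the highest, as for ng1. The difference was 0.29 (SE 0.26, 95% interval -0.32 to 0.90; limma adjusted p = 0.760), and 0.0039 without control replicate 1 (95% interval -0.37 to 0.38; limma adjusted p = 0.996).

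The probeset listed under both ng1 and ng2 read 10.92, 10.95 and 11.57 in mutant larvae, against 8.95, 11.36 and 11.12 in control larvae. It followed the single-gene probesets, with its lowest value on control replicate 1. How far the single-gene probesets of ng1 and ng2 also read each other's transcript was not tested.

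**Figure D2:**
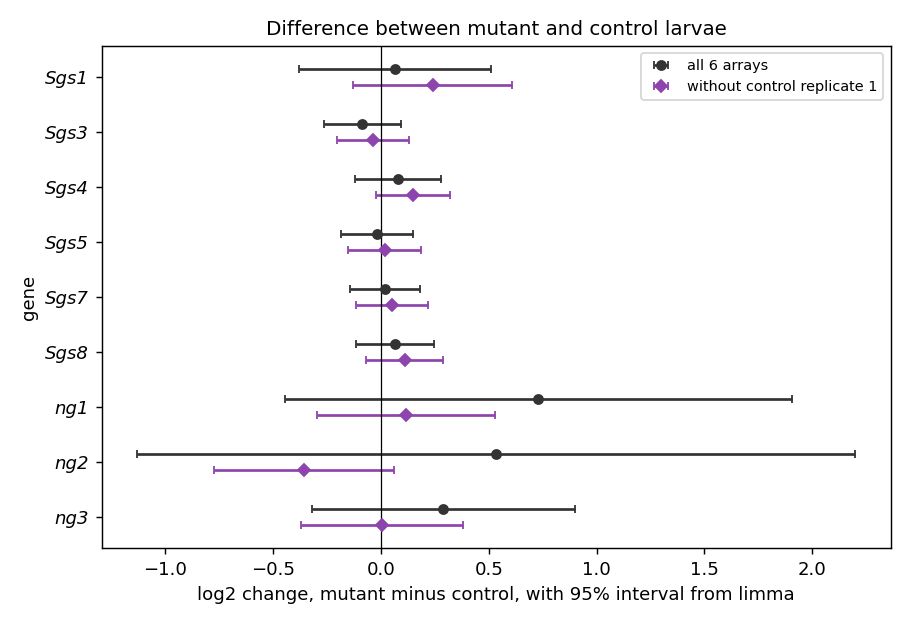
Log2 change, mutant minus control, of each glue gene (horizontal axis) with its 95% interval from limma, from all 6 arrays (black circles) and without control replicate 1 (purple diamonds). Every interval spans 0, and those of ng1, ng2 and ng3 narrow when control replicate 1 is left out.

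The 2 kinds of glue gene went opposite ways on control replicate 1. Relative to the mean of control replicates 2 and 3, that array was at -1.85 log2 units for ng1, -2.67 for ng2 and -0.86 for ng3, so that the other control pools had 3.59-fold, 6.37-fold and 1.81-fold its signal. For the Sgs genes it was higher than the same mean, by 0.53 for Sgs1, 0.20 for Sgs4, 0.15 for Sgs3, 0.13 for Sgs8, 0.11 for Sgs5 and 0.09 for Sgs7. It held the highest of the 6 values for 5 of the 9 genes (Sgs1, Sgs3, Sgs4, Sgs5 and Sgs7) and the lowest for 3 (ng1, ng2 and ng3). Over all tested probesets, control replicate 1 was the highest array for 30.0% and the lowest for 23.7%. Ordered by how far control replicate 1 lay below the median of the other arrays, ng2 was in place 14, ng1 in place 77 and ng3 in place 360 of 11262 probesets. The Sgs genes other than Sgs1 were in places 6143 to 8550, between 0.05 and 0.19 above that median, and Sgs1 was in place 10045, 0.30 above it.

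**Figure D3:**
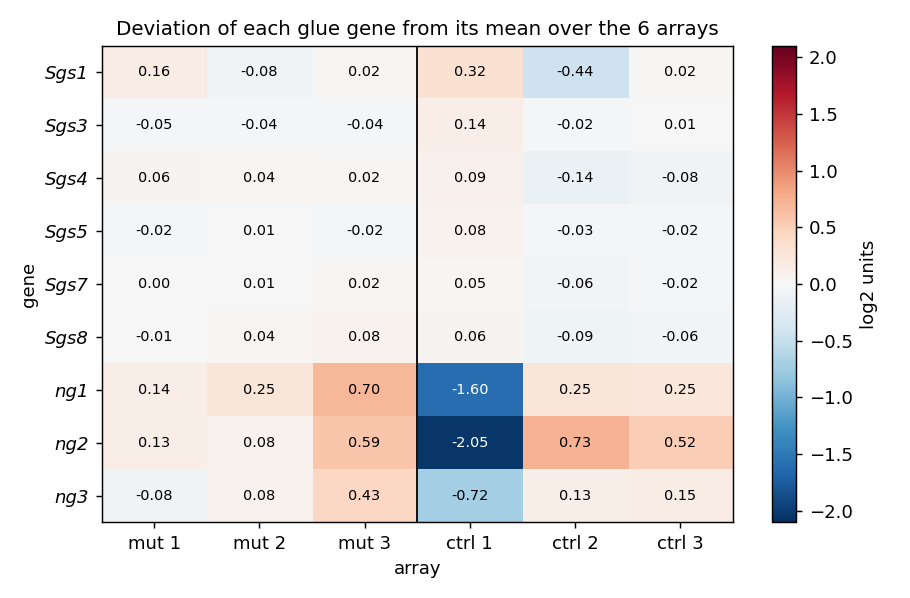
Deviation of each glue gene (rows) from its own mean over the 6 arrays (columns, mutant left and control right), in log2 units, blue below and red above the mean. On control replicate 1 the ng genes are at -1.595, -2.05 and -0.72 while all 6 Sgs genes are above their means.

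Across the 6 arrays, the ng genes followed each other closely, with Pearson r of 0.97 for ng1 with ng2, 0.98 for ng1 with ng3 and 0.94 for ng2 with ng3. Sgs4, Sgs7 and Sgs8 also went together, with r of 0.94 for Sgs4 with Sgs7, 0.92 for Sgs7 with Sgs8 and 0.84 for Sgs4 with Sgs8. Sgs3 and Sgs5 had r of 0.87 with each other and of -0.95 and -0.90 with ng1. These correlations describe 6 arrays that all genes share. Over the 5 arrays without control replicate 1, r stayed at 0.95 for ng1 with ng3, 0.93 for Sgs4 with Sgs7, 0.95 for Sgs7 with Sgs8 and 0.80 for Sgs4 with Sgs8. It was 0.44 for ng1 with ng2, 0.61 for ng2 with ng3, -0.34 for Sgs3 with Sgs5, -0.23 for Sgs3 with ng1 and 0.02 for Sgs5 with ng1, so these rested on that array. Sgs4 and the ng genes lie in the same stretch of X, and the r of Sgs4 over the 6 arrays was -0.47 with ng1, -0.67 with ng2 and -0.51 with ng3, against 0.13, -0.81 and -0.13 without control replicate 1.

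Spread between pools of one genotype was wide for the ng genes and narrow for most Sgs genes. The residual SD within groups was 1.11 for ng2, 0.78 for ng1 and 0.40 for ng3, wider than that of 99.5%, 98.5% and 94.9% of the tested probesets, whose median was 0.13. Sgs1, with 0.28, stood at 90.7%. Sgs4 (0.09), Sgs8 (0.06), Sgs3 (0.06), Sgs5 (0.05) and Sgs7 (0.04) lay between 2.47% and 23.2%. Without control replicate 1 the residual SD was 0.24 for ng2, 0.24 for ng1 and 0.21 for ng3, still above that of 88.2% to 91.4% of probesets. Sgs1 then lay close to ng3, with 0.21 at 87.6%, and the other Sgs genes lay between 0.31% and 7.59%.

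The narrow spread of 5 Sgs genes goes with their place at the top of the measured range. Their means over the 6 arrays were 14.02 to 14.42, and the highest value of any probeset was between 14.43 and 14.501 on each array. The 34 tested probesets with a mean of 14 or more had a median residual SD of 0.033, and the 5 Sgs genes had values above it, in places 19 to 32 of 34. How far signal near the top of the range compresses differences of these genes was not tested.

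Within genotypes, the 3 mutant pools spanned 0.55, 0.51 and 0.51 log2 units for ng1, ng2 and ng3, and the 3 control pools spanned 1.85, 2.775 and 0.87. For the Sgs genes the mutant pools spanned between 0.0046 for Sgs3 and 0.24 for Sgs1, and the control pools between 0.10 for Sgs7 and 0.75 for Sgs1. For each of the 9 genes the span was thus smaller among mutant than among control pools, and with 3 pools a genotype this was not tested. Control replicate 1 was the highest or the lowest control pool for each gene. Control replicates 2 and 3 differed by less than the mutant span for 5 of the 9 genes (Sgs5, Sgs8, ng1, ng2 and ng3) and by more for the other 4. At equal spread, a span of 2 arrays is expected to be smaller than one of 3. These counts therefore cannot show how far the wider control spans rest on control replicate 1.

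**Figure D4:**
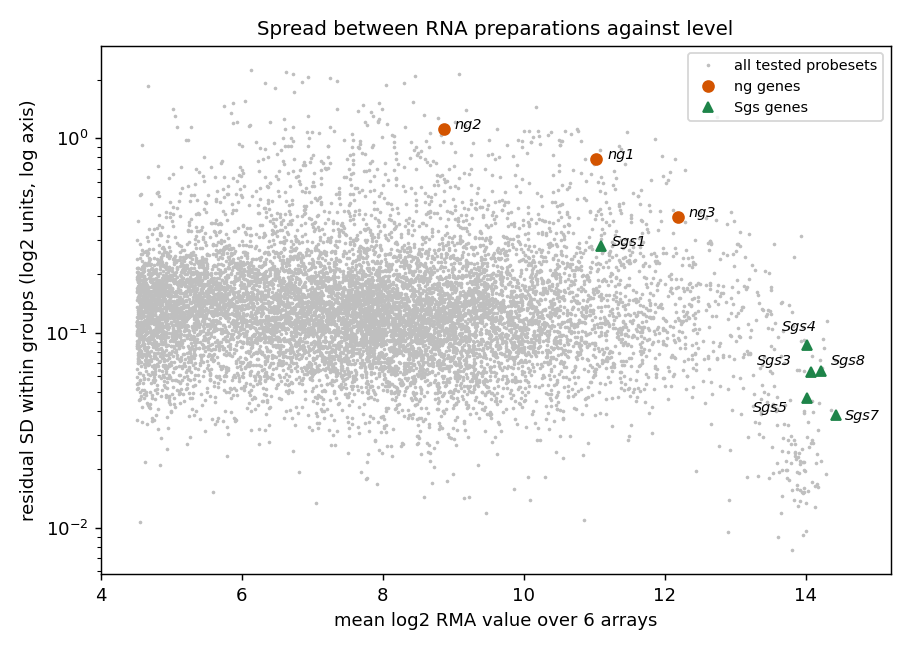
Residual SD within groups (log axis) against the mean log2 value over 6 arrays for all 11262 tested probesets (grey), the 3 ng genes (orange circles) and the 6 Sgs genes (green triangles). The ng genes lie along the upper edge of the cloud, and 5 Sgs genes lie at the right end, where spread is small for most probesets.

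Genes next to the glue genes or with related products did not pass the test either. Sgs5bis, the neighbour and relative of Sgs5, read 13.10, 13.19 and 13.55 in mutant larvae, against 12.73, 11.95 and 12.74 in control larvae. All mutant values lay above all control values, with a difference of 0.81 (SE 0.24; limma adjusted p = 0.367), while Sgs5 itself had -0.02. Sgs5 lies nearer the top of the measured range than Sgs5bis, and how far that compresses its difference was not tested. Pig1, which lies beside Sgs4 and is transcribed in the gland before the glue genes reach their peak, read 11.77, 11.97 and 11.88 in mutant larvae, against 11.59, 11.38 and 11.65 in control larvae. Its difference was 0.33 (SE 0.10; limma adjusted p = 0.393). Its groups did not overlap either, where 7% of all tested probesets did not overlap and lay higher in the mutant. For neither gene was control replicate 1 the lowest array, which was control replicate 2 for both. The gene ng4, between ng1 and Pig1, was below the level filter, at 3.20 to 3.44 in mutant larvae and 3.31 to 3.61 in control larvae. The surrounding gene dnc had a difference of -0.02 (limma adjusted p = 0.964) and Eig71Ee, whose product is also secreted into glue, -0.02 (limma adjusted p = 0.971).

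Gland identity genes did not pass the test. Of 10 tested transcription factor and enzyme genes of the salivary gland, 0 were called. The forkhead factor gene fkh read 6.99, 6.85 and 6.81 in mutant larvae, against 7.18, 6.98 and 6.85 in control larvae, and sage, which encodes the bHLH partner of Fkh, had a difference of -0.06 (limma adjusted p = 0.889). Both had their highest value on control replicate 1, as did 5 of the 10 genes in all, while 2 of the 10, PH4alphaSG1 and PH4alphaSG2, had their lowest there. The 5 include pip, whose brightest probeset spanned 0.18 log2 units over the 6 arrays. Its other tested probesets were instead lowest there, at 5.96, 4.99 and 5.28, against 6.71, 5.74 and 5.47 on control replicate 2. Their changes between genotypes were 0.43, 0.50 and -0.10 (limma adjusted p = 0.613, 0.533 and 0.836). At 0.50 all mutant values lay above all control values, as for 7% of all tested probesets. PH4alphaSG2, a prolyl hydroxylase gene of the gland, read 8.04, 8.26 and 8.26 in mutant larvae, against 7.23, 7.49 and 7.70 in control larvae, a difference of 0.71 (SE 0.13; limma adjusted p = 0.121). Its groups did not overlap, as for the 7% of all tested probesets that lay wholly higher in the mutant. The related PH4alphaSG1 had 0.34 (limma adjusted p = 0.617) and eyg, a Pax factor gene, 0.26 (limma adjusted p = 0.634).

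Of 10 tested genes for glycosylation, packing and release of glue, 0 were called, with a median change of -0.07. Those with the smallest p-values were the kinase gene Rok (-0.33, limma adjusted p = 0.385), the vesicle traffic gene Rab2 (0.22, limma adjusted p = 0.459) and hob (0.10, limma adjusted p = 0.746), which is needed for release of glue granules. Pgant9, which encodes an enzyme that adds sugars to glue mucins, had -0.09 (limma adjusted p = 0.746).

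Most ecdysone response genes were highest on control replicate 1, the array on which the ng genes were lowest. Of 12 tested genes, each read by its brightest probeset, 10 had their highest value there and 0 had their lowest. Over all tested probesets these shares were 30.0% and 23.7%. The median over the list was 0.29 above the gene means on that array, and between -0.14 and 0.07 on the other 5. The gene br, read by its brightest probeset, gave 11.79, 11.79 and 11.65 in mutant larvae, against 12.28, 11.67 and 11.67 in control larvae. Its other tested probesets were also highest on control replicate 1. Their changes between genotypes were -0.46, -0.37, -0.18 and -0.05, with limma adjusted p-values of 0.530 and above. At -0.46 and -0.37 all mutant values lay below all control values, as for 9.33% of all tested probesets. Without control replicate 1 these changes were -0.25, -0.15, 0.04 and 0.28. ImpE1, an ecdysone-inducible gene with one of the wider spreads (residual SD 0.42), gave 8.71, 8.46 and 8.74 in mutant larvae, against 9.32, 8.66 and 8.16 in control larvae. Another tested probeset of ImpE1 was instead highest on control replicate 2, at 5.79 against 5.70 on control replicate 1. For Hr39, another tested probeset was highest on mutant replicate 1, at 6.43 against 6.40 on control replicate 1. A further Hr39 probeset was highest on control replicate 1. Between genotypes 0 of the 12 were called, and the smallest p-values belonged to MsrA (0.54, limma adjusted p = 0.282), ImpE3 (-0.29, limma adjusted p = 0.652) and usp (-0.16, limma adjusted p = 0.663), which encodes the partner of the ecdysone receptor.

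The late puff genes, most of which ecdysone switches on in the gland as the glue genes are switched off, varied between pools in another order than the ng genes. Eig71Ed read 7.92, 6.74 and 4.56 in mutant larvae, against 7.50, 9.29 and 4.33 in control larvae. Control replicate 2 was the highest array and control replicate 3 the lowest for Eig71Ed, Eig71Ea, Eig71Ef and Eig71Eg, whose residual SDs were 2.15, 1.41, 1.30 and 1.26. Eig71Ee, whose product is secreted into glue, was bright on all arrays, at 13.25 to 13.57, with residual SD 0.13. It was highest on control replicate 1 and lowest on control replicate 2. On control replicates 2 and 3 the ng genes differed by at most 0.21. Of 5 tested late puff genes 0 were called (smallest limma adjusted p = 0.827). Fat body genes of the same larval period were not called: Lsp2, a larval serum protein gene, had residual SD 0.03 and a difference of 0.03 (limma adjusted p = 0.923), Fbp1, which encodes the fat body receptor for these proteins, had 0.28 (limma adjusted p = 0.485), and Fbp2 had 0.03 (limma adjusted p = 0.928).

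**Figure D5:**
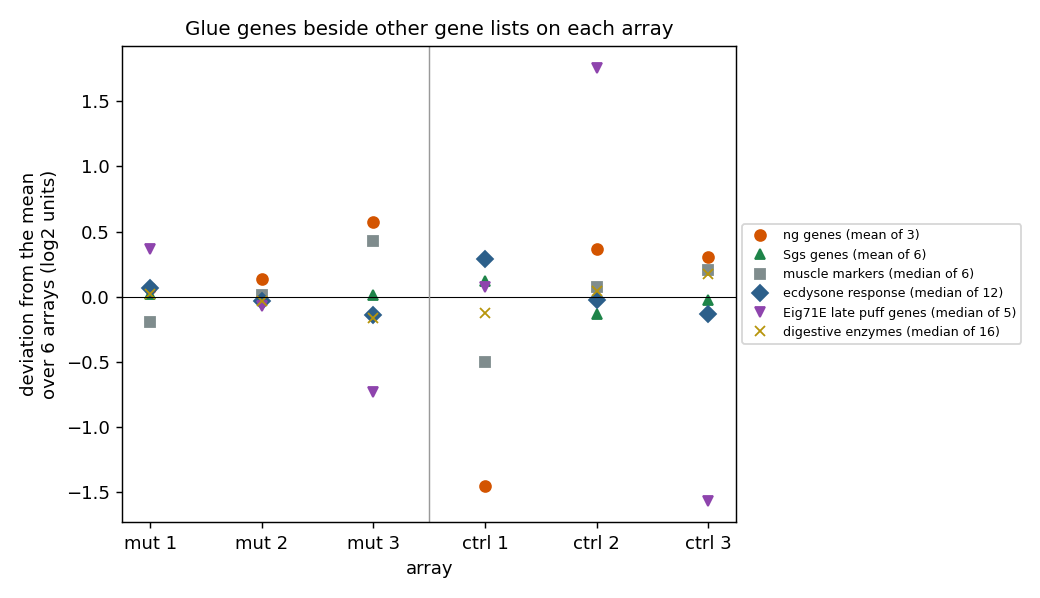
Deviation from the mean over the 6 arrays (vertical axis, log2 units) of the ng genes and the Sgs genes (means over genes) and of 4 other lists (medians over genes), for the mutant arrays left and the control arrays right of the grey line. The ng genes are at -1.45 on control replicate 1, where the muscle markers are at -0.50 and the ecdysone response genes at 0.29. The median of the Eig71E genes is highest on control replicate 2 at 1.76, although Eig71Ee is lowest on that array.

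Of the markers of other tissues, those of muscle stood furthest from their means on control replicate 1. All 6 tested muscle genes, each read by its brightest probeset, had their lowest value on it. The list median was -0.50 there, against -0.19, 0.02 and 0.43 on the mutant arrays and 0.07 and 0.21 on the other control arrays. Among these genes Mlc2, a myosin light chain gene, read 9.62, 9.18 and 9.33 in mutant larvae, against 7.48, 9.13 and 9.27 in control larvae. Another tested probeset of sls was also lowest on control replicate 1. A further one was not, with 6.50, 6.55 and 7.12 in mutant larvae, against 6.91, 6.82 and 6.84 in control larvae. Digestive enzymes had 5 of 16 genes lowest on control replicate 1, where 23.7% of all tested probesets were lowest, and a list median of -0.12. Imaginal disc markers had a list median of 0.23 there, neuron markers 0.19 and hemocyte markers 0.13, and fat body markers one near 0. The part of these tissues in the ng values was not tested.

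The mean glue profile over the 6 arrays was set by the ng genes, which were at -1.45 on control replicate 1, where the Sgs genes were at 0.12 and the mean of all 9 at -0.40. The probesets most like it are therefore like the ng genes by construction. Among 659 named probesets with a range of at least 1 log2 unit, the 10 with the largest Pearson r with the mean glue profile were CG13160, CG14292, CG13311, CG10560, CG32483, the tetraspanin gene Tsp42Eg, CG17734, CG34427, CG17029 and CG9498, with r between 0.991 and 0.999 over 6 arrays. CG13160 read 7.69, 7.68 and 8.02 in mutant larvae, against 6.76, 7.72 and 7.77 in control larvae. All 10 had control replicate 1 below the mean of the other control arrays, by -0.96 for CG17734 to -2.26 for CG34427. Of the 659 probesets, 61 had an r above 0.95 with the profile, so these names are a few of many. Against the profile of the ng genes alone, the likest were CG17475 (r = 0.999), CG31267 (0.996) and the sodium/proton exchanger gene Nha2 (0.995). Against that of the Sgs genes alone, and with no limit on range, they were CG30419 (0.986), Prosap (0.982) and CG7987 (0.979). The separate profiles were made after the values were seen. None of the genes named here passed the test between genotypes, with limma adjusted p-values of 0.643 and above.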

How the data were processed

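Each deposited value is a log2 expression value of a probeset on an array. The authors corrected the background, normalized and summarized the probes by RMA, per the design text in the labels and per the submitters' processing notes, without a version. The present/absent filter that this text names could not be repeated, since the table used here holds no calls. In its place, after removal of 183 control probesets, the dimmest 40% by mean over the 6 arrays were dropped, which left 11262 probesets at a mean of 4.51 or more. Limma 3.58.1 in R 4.3.3 (lmFit and eBayes, two-sided) was fitted to all of these, p-values were adjusted by Benjamini-Hochberg over them, and an adjusted p under 0.05 was a call. The fit was tested on simulated data. RMA forces the arrays to one distribution, which hides any change common to most transcripts. Precision is limited by the number of arrays, 3 a group.

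Gene names come from the platform annotation, in which 13647 probesets have 1 symbol, 402 have several and 4720 have no entry. RefSeq's table for Release 6 plus ISO1 MT matched 13544 of the first and was used for current symbols, arms and gene order. Members and lists were chosen with earlier results of these data known. Genes of the 14 other lists were read by their brightest tested probeset, and other tested probesets are given for br, pip, sls, ImpE1 and Hr39. Beside the 9 members, the rule named called genes, up to 3 genes of each list with the smallest p, all glue neighbours, late puff, hexamerin and ecdysone response genes in the top 5% of residual SD, and the 10 probesets most like the mean glue profile by Pearson r. The genes fkh, sage, Pgant9, br, Hr39, para, lz and Yp1, the separate ng and Sgs profiles, the bright probesets, the correlations, spans and list calls without control replicate 1, and the shared ng1 and ng2 probeset were added after their values were seen. The roX1 and roX2 levels were not analysed here, so the labels have no check by the targeted genes.

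Alternatives were no filter or one at 20%, a repeated quantile normalization, subtraction of array medians, a replicate block, array weights, a trended robust prior variance and the removal of each array in turn. Same-numbered mutant and control arrays deviated from their group means with correlations of 0.053, -0.19 and 0.32 for replicates 1, 2 and 3, so the numbers were not taken as pairs. Python 3.11.15 and matplotlib 3.10.9 made the plots.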

Additional observations from a re-analysis of the deposited data

How the results depend on the processing

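The count of called glue genes was 0 under all 13 alternatives, and the median log2 change of the 9 genes lay between 0.032 and 0.085. Over all probesets the number called by limma was 62, 28 with the replicate block, 232 with array weights, and 12 to 84 when 1 array was left out. The median residual SD of the glue genes, 0.086, was 0.040 to 0.100 with 1 array left out, the lowest without control replicate 1. Signs turned under array weights for Sgs5 (0.018), ng2 (-0.25) and ng3 (-0.0024). With 1 array left out, changes ran from -0.14 to 0.24 for Sgs1, from -0.039 to 0.018 for Sgs5, from -0.00095 to 0.050 for Sgs7, from -0.36 to 1.03 for ng2, from 0.12 to 1.04 for ng1 and from 0.0039 to 0.44 for ng3; the other Sgs genes kept their sign. The replicate numbers were not shown to pair the arrays, and the replicate block changed no glue gene's call. The lowest limma adjusted p of any glue gene under an alternative was 0.283, for Sgs4. The causes of these shifts were not tested, and 3 arrays a group leave changes of the ng genes inside wide intervals undetected.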

Other observations

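Of the genes in the other lists, 1 was called with all arrays and 3 without control replicate 1 (LysX, LysP and PPO2). Over all tested probesets, 0.551% were called with all arrays and 0.746% without control replicate 1. The digestive lysozyme gene LysX fell by 1.86 on the log2 scale in the mutant (limma adjusted p = 0.0015), among 16 tested digestive genes. LysP, in the same list, had 1.21 (limma adjusted p = 0.0896), and 1.39 without control replicate 1 (limma adjusted p = 0.0326), and Jon25Bii, a serine protease gene of the gut, -0.47 (limma adjusted p = 0.319). Ecdysteroid synthesis genes, which set the hormone that drives the glue genes, had 0 of 6 called, with -0.17 for Ptth (limma adjusted p = 0.622), -0.16 for dib (limma adjusted p = 0.708) and 0.11 for sad (limma adjusted p = 0.842). Cell death and autophagy genes, used when the gland is destroyed after pupariation, had 0 of 4 called, with 0.12 for Dronc (limma adjusted p = 0.801), -0.14 for Dark (limma adjusted p = 0.808) and -0.11 for Atg1 (limma adjusted p = 0.816).

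In the lists of other tissues 0 genes were called with all arrays. Without control replicate 1 the hemocyte gene PPO2 was called, with a change of -1.24 (limma adjusted p = 0.0469). The smallest p-values were those of PPO2 (-0.98, limma adjusted p = 0.282), PPO1 (-0.81, limma adjusted p = 0.451) and NimC1 (-0.13, limma adjusted p = 0.811) among 7 hemocyte genes, Syn (-0.43, limma adjusted p = 0.186), nSyb (0.08, limma adjusted p = 0.766) and brp (-0.10, limma adjusted p = 0.812) among 5 neuron genes, and nub (-0.28, limma adjusted p = 0.582), ey (-0.24, limma adjusted p = 0.591) and ptc (-0.16, limma adjusted p = 0.677) among 7 imaginal disc genes. Muscle genes sls (0.70 by its brightest probeset, limma adjusted p = 0.657), Mlc2 (0.75, limma adjusted p = 0.675) and bt (0.19, limma adjusted p = 0.754) and fat body genes Desat1 (0.43, limma adjusted p = 0.485) and FASN1 (0.47, limma adjusted p = 0.629) did not pass either. Other tested sls probesets had changes of 0.52 and -0.14 (limma adjusted p = 0.744 and 0.835). The neuron gene para, the hemocyte gene lz and the fat body gene Yp1, which is used in adult females, were below the level filter.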
